A study of Mus musculus with 2 samples.

Results

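Binding of REV-ERBα at the loci of Nfil3 and Bhlhe40, both clock-controlled transcriptional repressors, was examined in a chromatin immunoprecipitation and sequencing (ChIP-seq) experiment on mouse T helper 17 (Th17) cells, the CD4 T cells that produce interleukin-17. The peaks at these loci were those in the authors' REV-ERBα peak list (genome build mm9) whose midpoint lay on chromosome 13 between 53000000 and 53200000, a window of 200 kb set for Nfil3, or on chromosome 6 between 108550000 and 108680000, a window of 130 kb set for Bhlhe40. This gave 7 of the 8884 listed peaks, 5 in the Nfil3 window and 2 in the Bhlhe40 window. Neither window was without a peak. The experiment consisted of 1 sample precipitated with an antibody to REV-ERBα and 1 sample of input DNA, both from primary cultures of wild-type Th17 cells with no further treatment or genotype named in the labels. Input, which is chromatin sequenced without precipitation, entered only through the value listed for each peak. The ChIP library held 6390234 tags (aligned reads). With 1 ChIP sample the values are without replicates, and the intervals given reflect the error of counting alone. A peak list holds no expression values, so the labelled cell type could not be checked against marker genes, and since input DNA was the only control, it was not tested whether the antibody's target accounts for every peak.

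REV-ERBα, the product of Nr1d1, belongs to the nuclear receptors and serves the circadian clock by bringing corepressors to DNA. It recognises the core letters AGGTCA with an A- and T-rich stretch before it. Nfil3 (also E4BP4) encodes a basic leucine zipper repressor that binds D-box elements, where it opposes the activators Dbp, Tef and Hlf. It is a known target of REV-ERBα repression. Bhlhe40 (also Dec1) encodes a basic helix-loop-helix repressor that binds E-boxes, the elements through which CLOCK and BMAL1 activate transcription, and in helper T cells it is known for promoting granulocyte-macrophage colony-stimulating factor and restraining interleukin-10. In the RefSeq gene order of the GRCm38.p6 assembly, the neighbouring protein-coding genes of Nfil3 are Auh and Ror2, and those of Bhlhe40 are Itpr1 and Arl8b. That assembly differs from mm9, and its coordinates were not set against the peaks. Peak positions are therefore given within the windows and relative to each other. Which peaks lie in the promoter, introns or flanks of either gene, and which might lie in a neighbouring gene, was not determined.

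The promoter of Nfil3 is shown because it is the gene's own regulatory sequence nearest the start and carries the core letters recognised by REV-ERBα. The sequence, from RefSeq (GRCm38.p6, chr13:52980990-52981289, minus strand, 5′ to 3′), runs from 250 bases before to 50 bases after the start, and the capitals mark these core letters.

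Nfil3 promoter: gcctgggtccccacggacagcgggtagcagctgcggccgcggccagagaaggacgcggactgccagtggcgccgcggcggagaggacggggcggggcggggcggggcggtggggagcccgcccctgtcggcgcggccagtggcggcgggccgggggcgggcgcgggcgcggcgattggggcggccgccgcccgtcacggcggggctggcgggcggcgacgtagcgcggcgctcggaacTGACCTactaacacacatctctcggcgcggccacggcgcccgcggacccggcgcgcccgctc

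The capitals TGACCT are AGGTCA on the opposite strand, 12 to 7 bases before the start. Of 32851 promoter sequences of the same length, 16.3% hold AGGTCA on either strand, so a match of this kind is common. Only the core letters were searched, and the A- and T-rich stretch before them was not assessed. The E-box CACGTG and the D-box letters TTATGTAA and TTACGTAA, searched on both strands, were not found in these letters of the Nfil3 promoter and are held by 7.15%, 0.938% and 0.119% of the promoters. The sequence thus held 1 match to the motifs searched. The Nfil3 promoter had a G and C content of 81.7%, against a median of 52.7%, and 54 CpG dinucleotides, against a median of 7. No sequence of the peaks themselves was used.

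The Nfil3 window held 5 peaks with 100 ChIP tags in all (95% Poisson interval 81.4 to 121.6), against 5 input tags. The peaks fell into a single strong one near the window's edge and 4 weaker ones further in, which together spanned 25.4 kb. The strong peak, on chromosome 13 at 53009965 to 53010271, had 42 tags (30.3 to 56.8), 42.0% of the tags in the window. It lay 10.1 kb inside the edge, and a window narrower by 0.25 of its width at each end leaves it out and holds 58 tags. No other peak on chromosome 13, which had 444, reached as many tags, and 99.0% of the whole list had fewer. Its input was 2.8 scaled tags (3 input tags), and the authors' deposited fold over input was 14.81, with a binomial interval of 4.73 to 74.7. The authors' fold over the surrounding 10 kb was 16.03, higher than that of 94.5% of the list.

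The caller's score, a peak height from a run set to consider at most 1 tag per bp, placed the same peak lower. Its score was 27, and 16 peaks on chromosome 13 scored higher. The score was 0.643 of its tag count, against a list median of 0.88. Its clonal fold change, the caller's measure of tags stacked on the same positions, was 1.23, above 97.6% of the list. Its lead in tags on the chromosome thus was not kept in the score, and whether stacked tags account for this was not tested.

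The other 4 peaks of the Nfil3 window began 58.9 kb further along. At 53068911 to 53069217 there were 11 tags (5.49 to 19.7) with a score of 10. At 53080956 to 53081262 there were 17 tags (9.9 to 27.2) with a score of 15. At 53089692 to 53089998 there were 10 tags (4.8 to 18.4) with a score of 9, which is the caller's threshold, so this peak was among the weakest that could be listed. At 53093982 to 53094288 there were 20 tags (12.2 to 30.9) with a score of 16. The intervals of these 4 peaks overlap, and no order among them is read from the counts. Of the 4, only the 20-tag peak had an interval that overlapped that of the 42-tag peak, and only narrowly (upper end 30.9, against a lower end of 30.3). Overlap of intervals does not show that counts are equal, and differences between peaks were not tested.

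Input was low under this group, and also in the list as a whole, where the median was 1.9 scaled tags. The peaks with 11, 17 and 10 tags had no input tag, listed as 0.5 scaled tags, and the peak with 20 tags had 1.9 scaled tags (2 input tags). The authors' deposited folds over input of 23.27, 35.97 and 21.16 for the peaks without an input tag therefore rest on that lowest value. Set against 3 input tags, the limit that a count of 0 allows, their ChIP tags would give ratios of 3.88, 5.99 and 3.53. With the counting error of the ChIP tags included, the lower ends of the binomial intervals were 2.66, 4.37 and 2.37, and there was no upper end. The 20-tag peak was 10.58-fold over input (2.57 to 93.3). Peaks without an input tag made up 3 of the 5 in the Nfil3 window, none of the 2 in the Bhlhe40 window and 16.8% of the list.

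Fold over the local region gave another order within the Nfil3 window. The 20-tag peak stood 13.20-fold over the surrounding 10 kb, higher than 87.7% of the list. The 11-, 17- and 10-tag peaks reached 6.45-, 5.79- and 4.73-fold, of which the last was close to the filter of 4 and higher than only 6.64% of the list. The local background behind these folds ran from 1.52 tags per peak width at the 20-tag peak to 2.94 at the 17-tag peak, against a list median of 1.93.

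**Figure D1:**
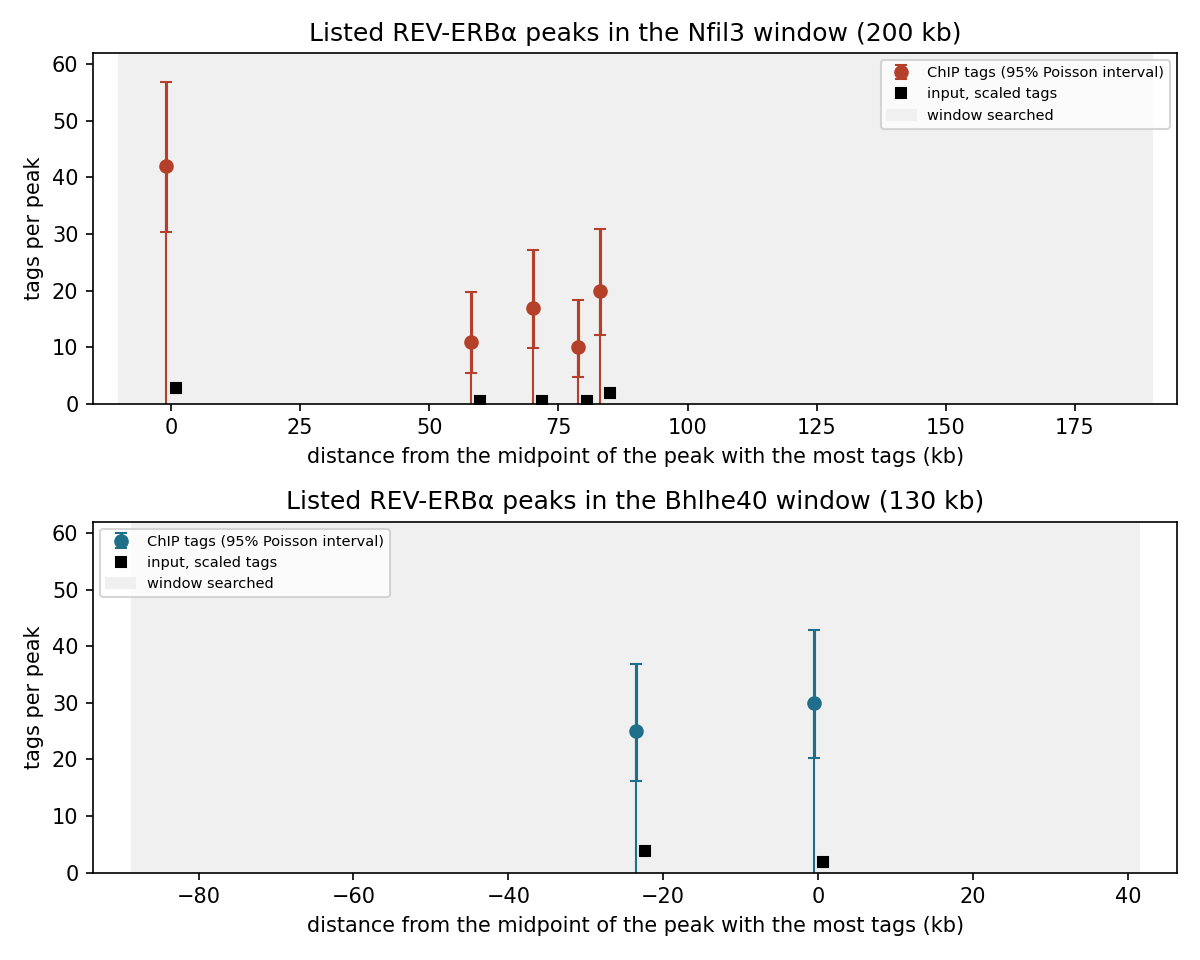
ChIP tags (circles, with 95% Poisson intervals) and scaled input tags (squares) of each listed peak in the Nfil3 window (above) and the Bhlhe40 window (below), against the distance in kb from the peak with the most tags; circles and squares of a peak are drawn slightly apart, and the grey area is the window searched. The Nfil3 window has a peak of 42 tags apart from 4 peaks of 10 to 20 tags, and the Bhlhe40 window has peaks of 25 and 30 tags.

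The Bhlhe40 window held fewer peaks, and both were in the upper part of the list by tags and by score, but not both by enrichment. Together they had 55 ChIP tags (41.4 to 71.6), against 6 input tags. The peak at 108615546 to 108615852 had 25 tags (16.2 to 36.9) and a score of 22. The peak at 108638464 to 108638770, 22.9 kb further along, had 30 tags (20.2 to 42.8) and a score of 27. Of the whole list, 86.6% had fewer tags than the first of these and 93.3% had fewer than the second. The tag intervals overlap, and whether the peaks differ beyond counting error was not tested.

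The Bhlhe40 peaks had different listed enrichments, each resting on few input tags. The 30-tag peak had 1.9 scaled input tags (2 input tags) and the authors' fold was 15.87 (4.03 to 137.0). The 25-tag peak had 3.8 scaled input tags (4 input tags) and a fold of 6.61 (2.28 to 26.1), the lowest of the 7 peaks and higher than only 26.8% of the list. These intervals overlap widely. Over the local region the 30-tag peak reached 13.20-fold and the 25-tag peak 5.95-fold, higher than 87.7% and 24.6% of the list. The local background at the 25-tag peak was 4.2 tags per peak width, above that of 96.1% of the list and the highest of the 7.

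**Figure D2:**
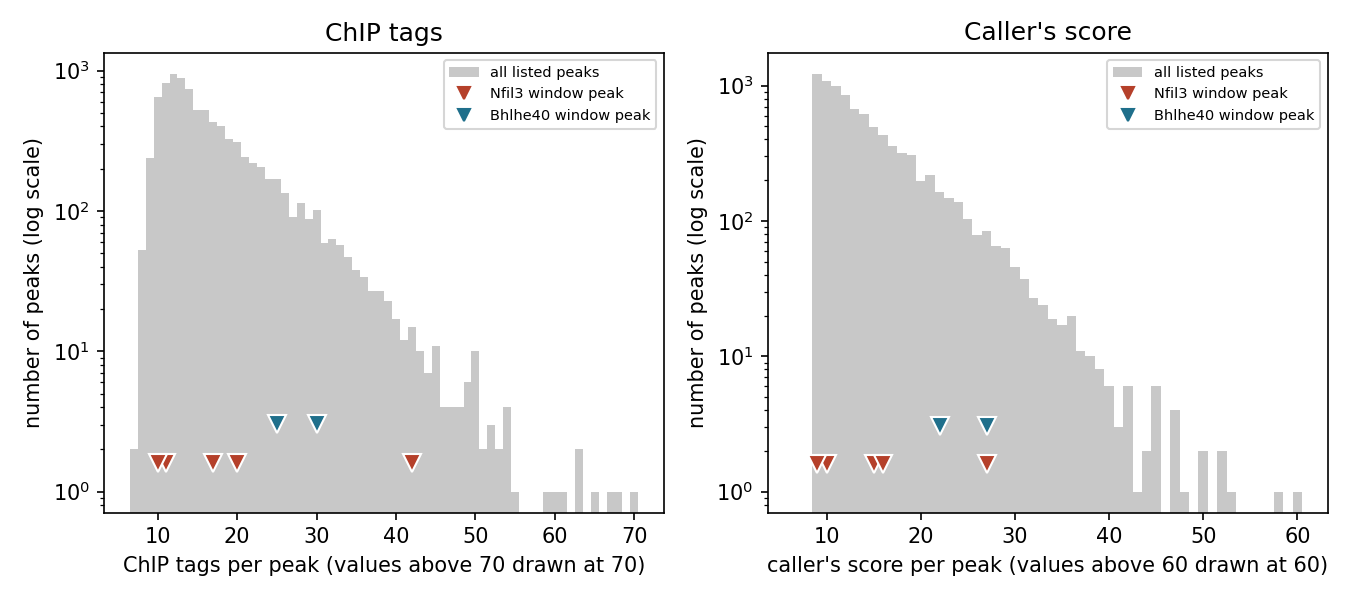
Histograms of ChIP tags per peak (left) and of the caller's score per peak (right) for all 8884 listed peaks, with the number of peaks on a log axis; triangles mark the peaks of the Nfil3 and Bhlhe40 windows at their values, and their height has no meaning. The 42-tag peak of the Nfil3 window and the 30-tag peak of the Bhlhe40 window share a score of 27.

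Set side by side, the strongest peak of the Nfil3 window and the stronger peak of the Bhlhe40 window differed in tags, 42 against 30, but their intervals overlap and both scored 27. The next strongest in each window had 20 tags (Nfil3) and 25 tags (Bhlhe40). Like every listed peak, the 7 had passed the authors' filters (at least 4-fold and p at most 1e-04, against input and against the local region), which kept 62.2% of 14274 putative peaks. The authors' deposited Poisson p-values over input ran from 9.55e-11 for the 10-tag peak to 4.60e-34 for the 42-tag peak. Those over the local region ran from 7.34e-05 to 2.04e-35 for the same peaks. For the 3 peaks without an input tag, the p-values over input rest on the lowest listed input value, like their folds. Set against 3 input tags, the ratios of the 10- and 11-tag peaks, 3.53 and 3.88, would lie below the filter of 4.

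Read against the whole list, the 7 peaks had a median of 20 tags, against 15 in the list, and 5 of them had at least 15 tags, as had 51.3% of all peaks. At least 8-fold enrichment over input was listed for 6 of the 7, the exception being the 25-tag peak of the Bhlhe40 window, and for 61.5% of all peaks. That count includes the 3 peaks without an input tag. At least 8-fold enrichment over the local region was reached by 3 of the 7 and by 47.5% of all peaks. Their median fold over input was 15.9, against 10.6 in the list, with the 3 peaks without an input tag included. Over the local region their median fold was 6.45, against 7.78 in the list. These shares and medians rest on 7 peaks, and nothing particular to the loci is read from them.

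**Figure D3:**
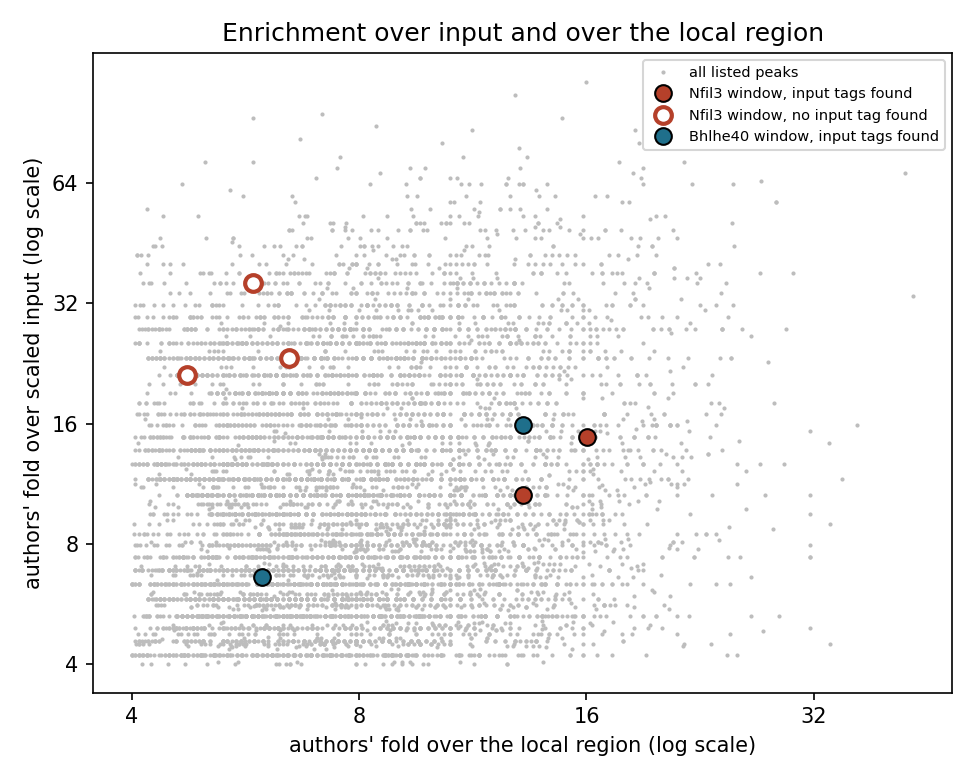
The authors' fold over scaled input (vertical, log scale) against their fold over the local region (horizontal, log scale) for all 8884 listed peaks (grey), the Nfil3 window (red) and the Bhlhe40 window (blue); open circles had no input tag, so their height depends on the lowest listed input value. The 3 open circles are over 20-fold by input yet under 8-fold over the local region, while 3 filled circles exceed 13-fold over the local region.

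The numbers of peaks in the windows were set against tiles of the same width. In tiles of 200 kb laid along every chromosome from its first listed peak, 3.43% of 12708 tiles held at least 5 peaks, the number in the Nfil3 window, and 71% held none. On chromosome 13 the share with at least 5 was 4.11%. In tiles of 130 kb, 11.4% of 19545 tiles held at least 2 peaks, the number in the Bhlhe40 window, and 77.3% held none. On chromosome 6 the share with at least 2 was 13%. The windows were set around genes and the tiles were not, so these shares describe the list and are no test.

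**Figure D4:**
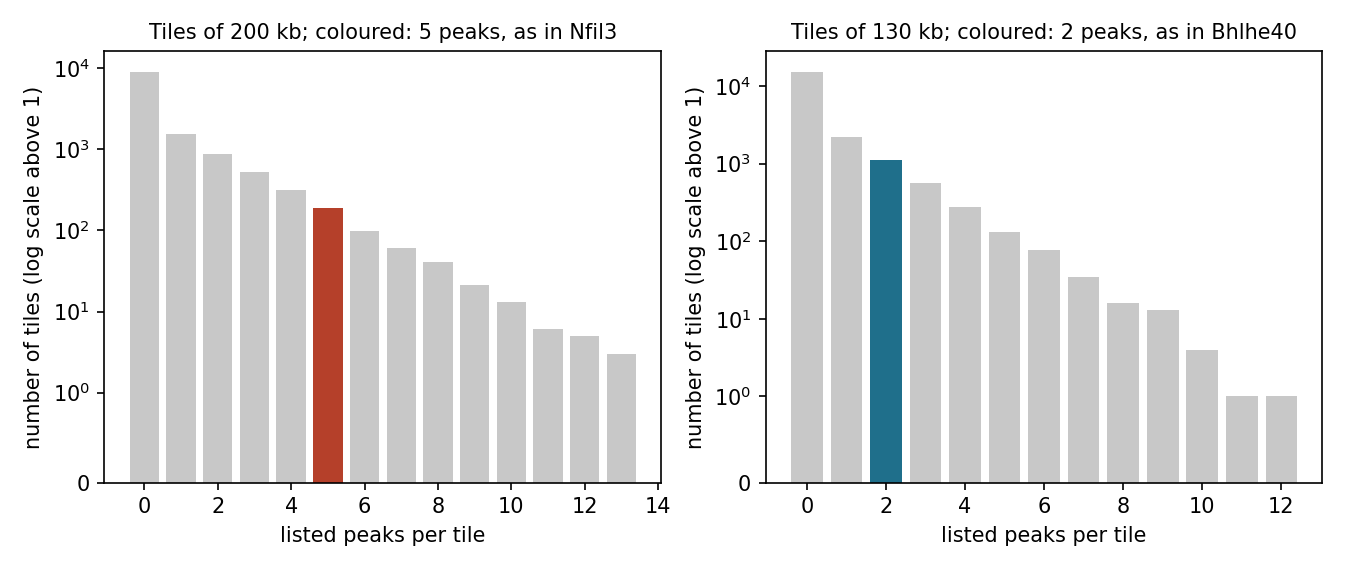
Number of tiles (log scale above 1) by the listed peaks they hold, for tiles of 200 kb (left) and 130 kb (right) over all chromosomes. The coloured bars mark tiles with 5 and with 2 peaks, the numbers in the Nfil3 and Bhlhe40 windows; most tiles hold none.

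The spacing of the 7 peaks was set against that of the list. In the Nfil3 window the last 3 peaks, with 17, 10 and 20 tags, followed each other at 8.74 and 4.29 kb and so formed a cluster with steps of at most 10 kb, which spanned 13.3 kb and held 47 tags. A neighbour within 10 kb was thus found for 3 of the 7 peaks, all in the Nfil3 window, and for 33.7% of all peaks. On chromosome 13 and on chromosome 6 this share was 36.3%. With 7 peaks the number lies near these shares, and no difference between the loci is read from it. The 11-tag peak lay 12.0 kb before this cluster. In the Bhlhe40 window neither peak had a neighbour within 10 kb.

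The cluster in the Nfil3 window was the end of a run of peaks. After its last member no peak was listed for 1.57 Mb on chromosome 13. Of the 8864 distances between neighbouring peaks in the list, 4.29% were at least as long, and their median was 50.8 kb. Over the same length before that member the list held 23 peaks, the member included. The list does not mark regions to which reads could not be aligned, so an absence of peaks there is not shown to be an absence of binding. The first peak beyond this stretch, at 54666746 to 54667052, had 13 tags. On the other side, the nearest peak outside the window lay 44.2 kb beyond its edge at 52955682 to 52955988, with 32 tags. It had 6.6 scaled input tags, a fold over input of 4.84 and a fold over the local region of 27.40. The nearest member, the 42-tag peak, lay 10.1 kb inside that edge. It was 54.3 kb from this outside peak and 58.9 kb from the next member. A distance of at least 54.3 kb was found for 48.7% of neighbouring peaks in the list.

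Around the Bhlhe40 window the nearest peaks outside were at 108499504 to 108499810, with 37 tags and 9.79-fold over input, 50.3 kb beyond the edge, and at 108785790 to 108786096, with 14 tags and 7.41-fold over input, 105.9 kb beyond the other edge. The peak of 37 tags had more tags than either member. From the members to these outside peaks the distances were 116.0 and 147.3 kb. Of all distances between neighbouring peaks, 32.4% and 27.2% were at least as long as these.

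Each window held stretches without a listed peak. For scale, the median distance between neighbouring peaks in the list was 50.8 kb. In the Nfil3 window no peak was listed over the last 105.9 kb. In the Bhlhe40 window none was listed over the first 65.7 kb or the last 41.4 kb. No listed peak scored below the caller's threshold of 9, so weaker sites at this depth are not listed. Putative peaks that the authors' filters removed are not listed either, as 62.2% of 14274 were kept. These stretches are therefore not shown to be unbound.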

How the data were processed

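REV-ERBα ChIP-seq and input DNA from mouse Th17 cells were compared through the authors' peak list of the 1 ChIP sample. Per the submitters' processing notes, CASAVA 1.8.2, Bowtie, HOMER and build mm9 were used; the versions of Bowtie and HOMER are not given in the sources. Per the file headers, peaks of 306 bp were called with HOMER findPeaks at a false discovery rate of 0.001 (9 tags), then required to reach 4-fold with p at most 1e-04 (Poisson), against input and against the surrounding 10 kb. Total tags are deposited counts. Input tags are a signal that the authors scaled to the ChIP depth, and normalized tags are a deposited signal per 10000000 tags. Folds are the authors' linear ratios, p-values the authors' Poisson values (not adjusted or retested), and the score is the authors' deposited peak height.

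Input values lay in steps of 0.945 scaled tags: 7392 of 7392 peaks above the lowest value were whole steps within a relative 0.02. The lowest value, 0.5, was read as no input tag. Intervals (95%) are exact Poisson for tags and exact Clopper-Pearson for folds. A zero input was bounded at 3 tags per peak. Local background is tags divided by the fold over the local region. Tiles ran from the first to the last peak of each chromosome. Of the 2 genes, Nfil3 matched a RefSeq promoter sequence and Bhlhe40 did not. Peaks within 50 kb of other clock genes were not analysed here, since no mm9 annotation was used. Functions were tested on simulated data. Python 3.11.15, numpy 2.4.6, pandas 2.3.3, scipy 1.17.1 and matplotlib 3.10.9 were used. All peaks in the windows are named. Members and lists were chosen with earlier results of these data known. Alternatives for thresholds, window edges, tile starts and zero input are given at the end.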

Additional observations from a re-analysis of the deposited data

How the results depend on the processing

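Of 25 alternatives, 15 left the value within 1.5 times (numbers of peaks) or within its 95% interval (tags and tile shares). Some of these 15 could not have moved the value. No peak lay across a window edge, so counting any overlap kept both numbers of peaks. A limit of 15 tags could not drop the Bhlhe40 peaks of 25 and 30 tags. Keeping peaks of at least 15 tags left 3 of the 5 peaks in the Nfil3 window and 79 of its 100 tags. Requiring 8-fold over the local region left 2 peaks there and 1 of the 2 in the Bhlhe40 window. Requiring 8-fold over input left 1 peak and 30 of 55 tags in the Bhlhe40 window. Summed scores in the Nfil3 window came to 77. Fewer peaks or tags follow from these stricter limits by construction. With 1 input tag in place of none, the median fold over input in the Nfil3 window was 11.6, against 21.2. Both Bhlhe40 peaks had input tags, so this setting could not change them and was not counted. The Nfil3 window widened by 0.25 of its width at each end held 6 peaks and 132 tags, and narrowed it held 4 peaks and 58 tags, having lost the 42-tag peak. The Bhlhe40 window kept 2 peaks and 55 tags under both. The tags under moved edges were added after seeing the data. Tiles shifted by 0.5 of a width, chosen after seeing the data, held at least 5 peaks in 3.43% and at least 2 in 11.2%. With a single ChIP library, no replicate could be left out. No paired analysis was possible because each group had 1 sample and no replicate number in the labels. With 0 to 4 input tags per peak, input depth limits every fold.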
